A study of Mus musculus with 11 samples.

Results

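The 10 genes described here are Spp1, the gene of osteopontin, and 9 genes named together in work on lipid-associated macrophages: Gpnmb, Trem2, Lgals3, Cd68, Mpeg1, Msr1, Cd36, Fabp5 and Lyz2. Their probe sets were found by gene symbol in the annotation of the array, except that of Spp1, whose probe set was named from the description of the gene set because the annotation used here gives it no symbol. The 10 genes have 17 probe sets among 22626, and 12394 genes are named on the array in all. They were chosen by name with earlier results of these data in view. Their own differences between groups are therefore given below as measurements with standard errors and without a p-value for each gene. How many passed the threshold is given only as a count, from which no support is read.

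Lipid-associated macrophages take up and break down lipid and dead cells, and they carry scavenger receptors, lysosomal proteins and the lipid receptor Trem2, which signals through the adaptor DAP12. Osteopontin is a secreted phosphoprotein that binds integrins and CD44. Foam cells of atherosclerotic lesions are known for many of these genes, while Cd36 and the fatty acid binding proteins are also abundant in fat cells and capillary endothelium.

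RNA from the adventitia, the outer layer of the abdominal aorta, was measured on 11 arrays from male mice aged 78 weeks after laser microdissection of frozen sections. The first group, ATLO (artery tertiary lymphoid organ, a lymphoid aggregate that forms in the adventitia next to a plaque), held 4 samples of adventitia with an ATLO inside the lesion area. The outside-lesion group held 4 samples of adventitia away from lesions, and both groups were Apoe-deficient mice on standard chow (B6.129P2-Apoe<tm1Unc>/J), which lack apolipoprotein E in every tissue. The sample labels place the outside-lesion tissue away from the lesion area, whereas the design text of the series speaks of lesion-free mice, so it is not settled whether ATLO and outside-lesion tissue came from the same kind of aorta. The wild-type group held 3 samples of adventitia from C57BL mice on normal chow. Sections of the Apoe-deficient mice were pooled for each sample, with para-aortic lymph nodes, fat and connective tissue removed together with the aorta, and their RNA was extracted with another kit and amplified for longer than that of the wild type, so in every comparison with wild type the genotype and the preparation cannot be told apart. Whether each sample is a different animal is not in the labels, and the p-values therefore reflect sample-to-sample spread that could be technical in part.

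Apoe itself read 12417 ± 651 (SD, n = 3) in wild type, 134 ± 31.1 (SD, n = 4) in ATLO and 110.0 ± 67.0 (SD, n = 4) outside lesions, in the order the genotype labels give. Median signals ran from 151.5 to 191 arbitrary units over the 11 arrays. The ratio of the 3′ to the 5′ actin probe sets, a sign of RNA quality, ran from 1.71 to 8.14 in ATLO, 6.22 to 11.99 outside lesions and 4.19 to 5.405 in wild type, and its part in the results below was not tested.

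Of the 10 genes, 8 read higher on all 4 ATLO arrays than on any outside-lesion array: Spp1, Gpnmb, Trem2, Lgals3, Cd68, Mpeg1, Msr1 and Lyz2. Trem2 is counted here though it entered the tested probe sets through its ATLO arrays alone. Spp1 stood far above the others in size, at a fitted 66.0-fold, and its rise in this contrast ranked 1 among the 14988 probe sets tested. The 10 genes did not all go the same way. Cd36 read lower on every ATLO array than on any other array, and Fabp5 was lower on average with overlapping arrays. Of all probe sets tested, 17.2% were likewise apart and higher and 13.2% apart and lower. Against wild type the same 8 were apart and higher (17.3% of all probe sets), and Cd36 and Fabp5 apart and lower (20.8%), Fabp5 through 1 of its 2 probe sets. Wild-type and outside-lesion arrays overlapped for all 10 genes, where 8.15% of all probe sets were apart and higher outside lesions and 13.3% apart and lower. In the bulk samples measured here, fewer cells of a type and less RNA per cell cannot be told apart.

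The promoters of the genes are shown for the 3 members whose 250 bases before the start site held a match to a searched macrophage motif and, for contrast, for Cd36, which went the other way. Capitals mark matches to GAGGAA (the core of a PU.1 site), to TGANTCA (the AP-1 site) and to TATAAA, on either strand. The sequences are RefSeq's on GRCm38.p6, each 5′ to 3′ on its gene's strand: Spp1 at chr5:104434861-104435110 on the plus strand, Trem2 at chr17:48346151-48346400 on the plus strand, Cd68 at chr11:69666171-69666420 on the minus strand and Cd36 at chr5:17835897-17836146 on the minus strand.
Spp1: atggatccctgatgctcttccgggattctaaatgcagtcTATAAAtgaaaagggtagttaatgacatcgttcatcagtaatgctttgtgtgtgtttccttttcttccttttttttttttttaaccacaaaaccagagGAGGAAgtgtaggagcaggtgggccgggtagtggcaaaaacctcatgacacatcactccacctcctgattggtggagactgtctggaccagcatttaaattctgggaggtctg
Trem2: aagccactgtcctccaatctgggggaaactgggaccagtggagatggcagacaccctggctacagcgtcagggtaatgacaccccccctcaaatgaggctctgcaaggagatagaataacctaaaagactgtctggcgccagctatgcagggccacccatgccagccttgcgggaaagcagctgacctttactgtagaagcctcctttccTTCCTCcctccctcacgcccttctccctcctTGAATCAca
Cd68: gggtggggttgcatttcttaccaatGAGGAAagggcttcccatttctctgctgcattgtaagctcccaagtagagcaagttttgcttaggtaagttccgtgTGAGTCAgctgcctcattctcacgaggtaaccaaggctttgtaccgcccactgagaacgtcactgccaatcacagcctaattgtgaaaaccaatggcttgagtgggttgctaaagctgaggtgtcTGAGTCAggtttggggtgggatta
Cd36: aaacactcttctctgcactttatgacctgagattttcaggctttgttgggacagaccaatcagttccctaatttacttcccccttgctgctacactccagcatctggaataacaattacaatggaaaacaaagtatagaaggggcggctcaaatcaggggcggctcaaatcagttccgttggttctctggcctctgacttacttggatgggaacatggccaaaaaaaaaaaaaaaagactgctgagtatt

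Such a window was in the table for 8 of the 10 genes. GAGGAA was found in 3 of the 8: in Spp1 at -113 from the start, in Trem2 at -40 on the reverse strand, and in Cd68 at -225. Over the 32851 start sites of the table, 23.3% held these letters in a window of the same length. TGANTCA was found in 2 of the 8, against 6.75% of all start sites. Trem2 held it at -9, and Cd68 at -149 and -24. TATAAA was found in Spp1 alone, at -211, against 12.4% of all start sites. The E-box letters CACGTG and CATGTG, which factors of the MITF and TFE family can bind, were in none of the 8, against 6.02% and 12.3%. The Cd36 window held none of the letters searched. These matches describe letters in a window and do not show that a factor binds there.

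**Figure D1:**
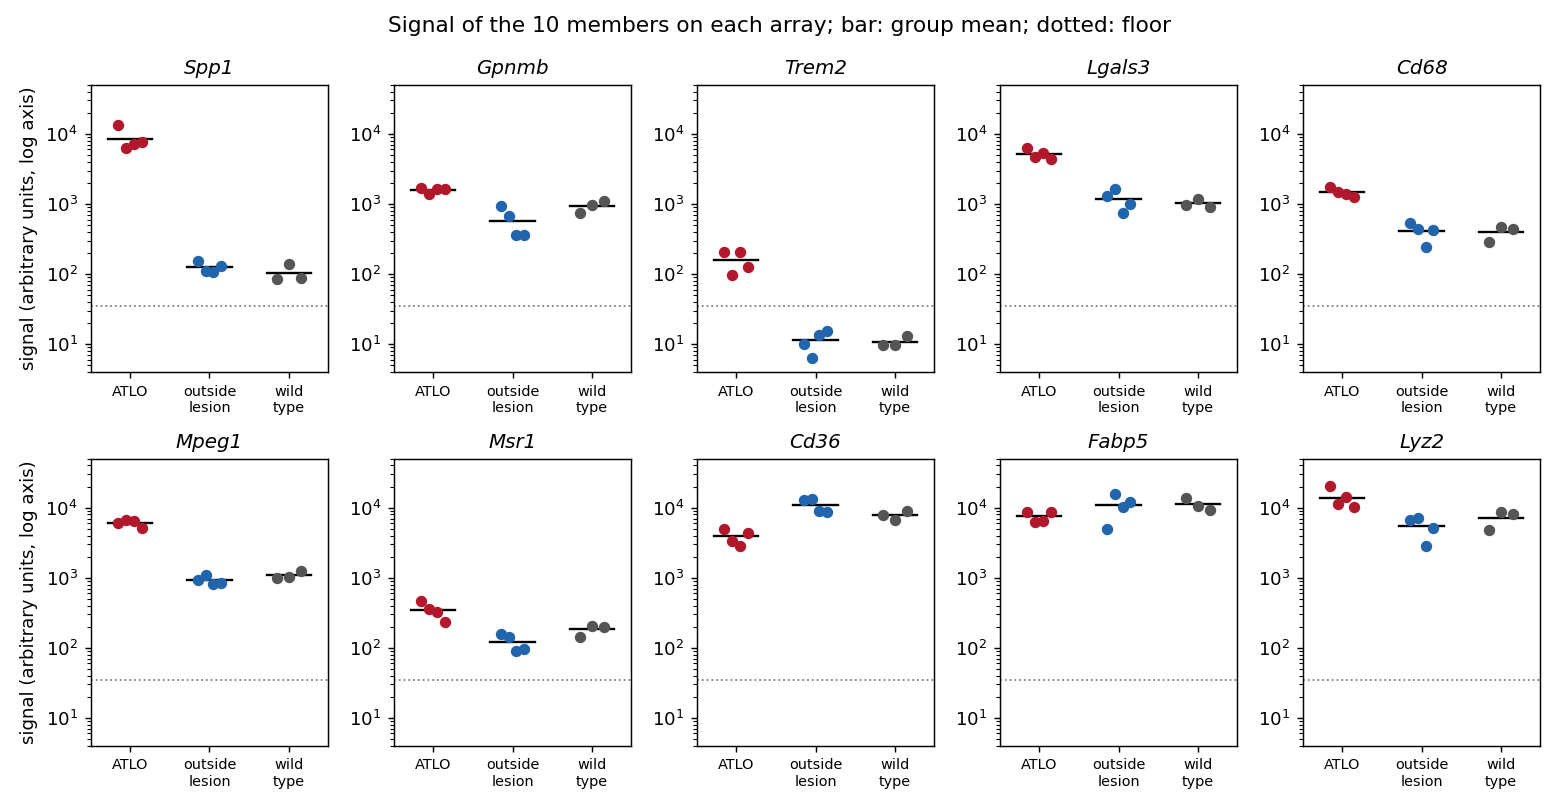
Signal of each of the 10 genes on each array (vertical axis, arbitrary units, log scale), for ATLO (4 arrays), outside lesion (4) and wild type (3), with the group mean as a bar and the floor of 35.1 as a dotted line. Spp1 lies between 6289.8 and 13312 in ATLO and at or below 156 elsewhere, Cd36 lies lowest in ATLO, and Trem2 clears the floor in ATLO alone.

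The secreted protein of the set came first. Spp1 read 13312, 6289.8, 7204 and 7588 on ATLO replicates 1 to 4. It read 156, 109, 107 and 132 on outside-lesion replicates 1 to 4, and 84.7, 140.4 and 87.9 on the wild-type arrays. The lowest ATLO array was thus far above the highest of the other 7, which lay close together. The group means were 8598.5 ± 3189 (SD, n = 4), 126 ± 22.9 (SD, n = 4) and 104 ± 31.3 (SD, n = 3). The fitted log2 difference was 6.04 ± 0.24 (SE) against outside-lesion adventitia and 6.34 ± 0.26 against wild type, where the rise ranked 4 among all probe sets tested. Outside-lesion and wild-type adventitia differed by 0.30 ± 0.26.

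Galectin-3, the protein of Lgals3, is a secreted lectin abundant in macrophages. Lgals3 read 6307, 4697, 5379.5 and 4425 in ATLO. It read 1279.8, 1646, 737.5 and 1001 outside lesions and 969, 1163 and 919 in wild type. No array of the other groups reached the ATLO range, and the log2 difference was 2.21 ± 0.22 against outside lesions and 2.35 ± 0.23 against wild type. Outside lesions and wild type differed by 0.14 ± 0.23.

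Among the surface receptors, Trem2 read 209, 97.5, 209 and 126 in ATLO, where it was a dim gene. It lay at or under 15.5 on the other 7 arrays, all below the floor of 35.1, under which signals on these arrays have no order. Against that floor the ATLO mean, taken over log2 values, was at least 4.34-fold higher than in either other group. Trem2 entered the table of tested probe sets through its ATLO arrays alone, so it had to differ, and its fitted log2 difference of 2.12 ± 0.34 moved to 3.57 against outside lesions with a floor of 11.4 and to 1.22 with a floor of 65.5. A second Trem2 probe set was too dim to be tested, with means of 49.25, 24.05 and 46.9 in ATLO, outside lesions and wild type and overlapping arrays.

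Msr1, scavenger receptor A, takes up modified lipoproteins. It read 460.2, 357, 320.3 and 231 in ATLO. It read 157, 145, 91 and 97.7 outside lesions and 145, 205 and 199 in wild type. The ATLO arrays did not overlap those of either group, but ATLO replicate 4 came near the highest wild-type array. The log2 difference was 1.48 ± 0.26 against outside lesions and 0.88 ± 0.28 against wild type. A second tested probe set of Msr1 did not clear the floor on any of the 4 outside-lesion arrays, nor on 1 of 3 wild-type arrays. Its ATLO arrays read 105.8 to 189.9, at least 4.602-fold above the floor as a mean of log2 values, and overlapped wild type.

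Gpnmb, a transmembrane glycoprotein of lysosomes and lipid-loaded macrophages, read 1677, 1369, 1638 and 1616 in ATLO. It read 933, 664, 361 and 363.5 outside lesions and 739.5, 977 and 1120.1 in wild type. The ATLO arrays lay above all others, and wild type lay on average above outside lesions with overlapping arrays. The log2 difference was 1.56 ± 0.27 between ATLO and outside lesions, 0.75 ± 0.29 between ATLO and wild type, and -0.80 ± 0.29 between outside lesions and wild type.

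Cd36, a class B scavenger receptor that also carries fatty acids into fat cells and endothelium, went the other way. It read 4986, 3363, 2853 and 4369.9 in ATLO. It read 13026, 13327, 8985 and 8594 outside lesions and 7911, 6778 and 8890.5 in wild type. Every ATLO array was below every other array. The log2 difference was -1.50 ± 0.21 against outside lesions and -1.04 ± 0.23 against wild type. The other probe sets of Cd36 gave -1.595 and -2.01 against outside lesions, and -1.60 and -1.46 against wild type.

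Among the lysosomal and degradative proteins, Cd68, a lysosomal glycoprotein used to mark macrophages, read 1728, 1500.2, 1380.2 and 1263 in ATLO. It read 539, 441, 244 and 422 outside lesions and 283.5, 465 and 446 in wild type. The ATLO arrays were all higher, by log2 1.88 ± 0.24 against outside lesions and 1.91 ± 0.255 against wild type, while the other groups overlapped.

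Mpeg1, the pore-forming protein perforin-2 of macrophages, read 6134, 6571, 6554 and 5197 in ATLO. It read 928, 1104, 810.0 and 845 outside lesions and 991, 1038 and 1228 in wild type. Its groups of arrays were tight and far apart, and the log2 difference was 2.73 ± 0.14 against outside lesions and 2.49 ± 0.155 against wild type.

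Lyz2, the lysozyme of macrophages and neutrophils, read 20109, 11148.5, 14017 and 10096 in ATLO. It read 6602, 7123, 2791 and 5155 outside lesions and 4738, 8708 and 8015 in wild type. ATLO replicate 4 was only slightly above the highest wild-type array, and the log2 difference was 1.39 ± 0.31 against outside lesions and 0.95 ± 0.335 against wild type. Lyz1 is a near-identical copy, so signal of the pair cannot be fully separated. Lyz1's 2 tested probe sets were also higher in ATLO than outside lesions, by 1.195 ± 0.308 and 0.85 ± 0.291.

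Fabp5, a fatty acid binding protein of macrophages, endothelium and epithelium, read 8743, 6232, 6409.5 and 8798 in ATLO. It read 4906, 15759.5, 10333 and 12077 outside lesions and 13842, 10618 and 9131 in wild type. The ATLO arrays overlapped the outside-lesion arrays through outside-lesion replicate 1, the lowest of all 11, and lay below the wild-type arrays. The log2 difference was -0.41 ± 0.30 against outside lesions and -0.57 ± 0.32 against wild type. Without outside-lesion replicate 1 the difference from outside lesions was -0.75. The second probe set of Fabp5 read 1973 to 3704 in ATLO, 1889 to 7883 outside lesions and 2936 to 5194 in wild type, so its arrays overlapped in both comparisons, with log2 differences of -0.42 ± 0.36 and -0.43 ± 0.385.

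**Figure D2:**
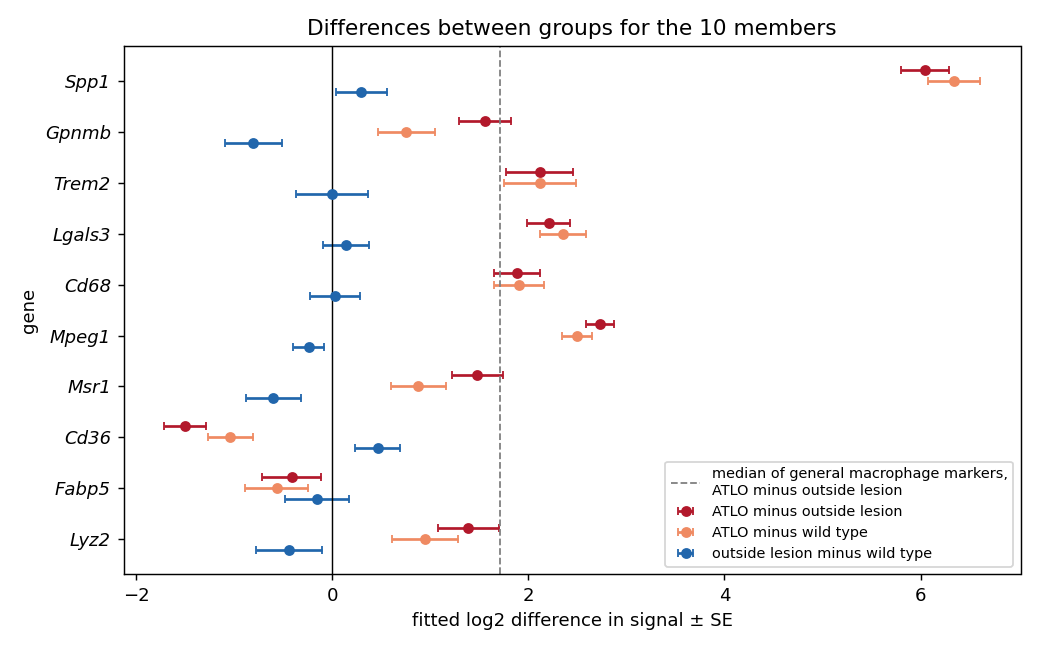
Fitted log2 difference in signal between groups for each gene (points, horizontal axis) with its standard error (bars), for the 3 contrasts, and the median difference of the general macrophage markers between ATLO and outside lesions as a dashed line. Spp1 lies near 6.04 and 6.34, Cd36 lies below 0 in both ATLO contrasts, and the outside-lesion minus wild-type points lie between -0.80 and 0.46.

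By the threshold used for all probe sets (adjusted p under 0.05), 8 members were higher and 1 lower in ATLO than outside lesions, where 17.9% of all probe sets tested were called higher and 13.9% lower. Either way, 31.9% of all probe sets were called in that contrast. Trem2, counted among those higher in both ATLO contrasts, entered the test through its ATLO arrays alone, so it had to differ. Against wild type 6 were higher and 1 lower, beside 13.4% higher, 13.4% lower and 26.8% either way of all probe sets. Gpnmb, Lyz2 and Fabp5 were not called there. Msr1 was, but not without any 1 of 6 arrays (ATLO replicates 1, 2 and 3 and each wild-type array), where its log2 difference lay between 0.72 and 0.97. Between outside lesions and wild type, 0 of the 10 were called by limma, beside 3.26% of all probe sets (1.72% higher, 1.54% lower), and 1 had an unadjusted p under 0.05. Since the genes were named with these contrasts known, no support is read from these counts. The median log2 difference of the 10 was 1.72, 1.43 and -0.08 in the 3 contrasts, beside 0.10, -0.05 and -0.11 for all probe sets tested. The contrasts share arrays, so they do not support one another.

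Most general macrophage markers were higher in ATLO, and the 8 members were read against them. Of 15 general macrophage markers tested, 13 rose in ATLO against outside lesions and 11 against wild type, with median log2 differences of 1.71 and 1.43. Their summed signal ran from 47730 to 69636 in ATLO, 17953 to 30931 outside lesions and 21659 to 29491 in wild type, and none lay at the floor on all arrays of a group. Adgre1, the F4/80 antigen, rose by 1.09 ± 0.18 (SE, adjusted p = 4.52e-04) and C1qa, a complement gene of resident macrophages, by 1.44 ± 0.31 (adjusted p = 0.00325). Csf1r, the receptor of the macrophage growth factor, differed by 0.37 ± 0.24 (adjusted p = 0.260) through its brightest probe set. Its other probe sets gave 0.99 and 0.97, with adjusted p of 0.00775 and 0.00380. Mertk, another marker of the list, differed by 0.08 ± 0.18 (adjusted p = 0.758). B and T cell markers rose on the same arrays, and the part of lymphocytes in the rise of these macrophage markers was not tested.

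When each array's mean log2 signal of the 15 markers was subtracted, Spp1 still differed by 4.53 between ATLO and outside lesions and by 5.04 between ATLO and wild type. Mpeg1 kept 1.22 and 1.20. Lgals3 kept 0.69 and 1.05, and Cd68 0.37 and 0.61. Trem2 came to 0.60 and 0.82 with the other groups set to the floor of 35.1, but to 1.97 and 2.37 with a floor of 11.4 and to -0.25 and -0.06 with a floor of 65.5, so its direction relative to the markers is not given by these arrays. Gpnmb, Msr1 and Lyz2 came to 0.04, -0.04 and -0.13 against outside lesions, so they were higher by about as much as the markers were on average. That average includes genes shared with lymphocytes, so these values are not relative to macrophages alone. Against wild type Gpnmb, Msr1 and Lyz2 came to -0.55, -0.42 and -0.35. Cd36 came to -3.02 and -2.34, and Fabp5 to -1.93 and -1.86.

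**Figure D3:**
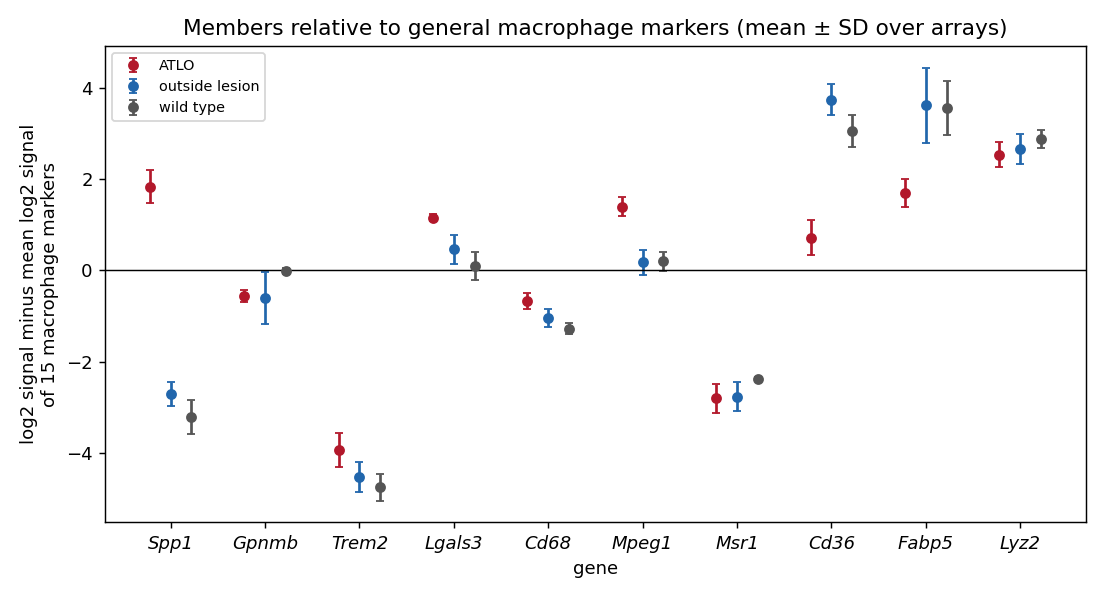
Log2 signal of each gene minus the mean log2 signal of 15 general macrophage markers on the same array (vertical axis), as the mean and SD over the arrays of ATLO (n = 4), outside lesion (n = 4) and wild type (n = 3). Some of the markers are also expressed by lymphocytes. Only differences between groups within a gene can be read, since probe sets differ in brightness, and those of Trem2 depend on the floor: Spp1 differs by 4.53 between ATLO and outside lesions, while Gpnmb and Msr1 differ by 0.04 and -0.04.

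Markers of other cells moved between the same groups. Of 10 adipocyte markers, 9 fell in ATLO against outside lesions and 5 against wild type. Their summed signal ran from 37738 to 103570.0 in ATLO, 163480.0 to 258060.0 outside lesions and 96499 to 130390.0 in wild type. Of 9 endothelial markers 5 fell against outside lesions, with sums of 3675 to 5508 in ATLO and 5968 to 13425 outside lesions. The part of these cells in the lower Cd36 and Fabp5 signal was not tested. Of 9 fibroblast markers 4 rose against outside lesions (Lum, Col1a1, Col3a1 and Pdgfra, by 2.75, 1.97, 1.49 and 1.22) and 3 against wild type. Their summed signal ran from 47069 to 91941 in ATLO, 26543 to 63434 outside lesions and 44564 to 55124 in wild type. Of 8 smooth muscle markers 2 fell against outside lesions and 6 against wild type, with sums of 12494 to 31391 in ATLO, 21048 to 64875 outside lesions and 42882 to 46763 in wild type. B cell markers rose in 6 of 6 tested and T cell markers in 6 of 6. Of 4 tested neutrophil markers 2 rose, with sums of 2013 to 3381 in ATLO and 697 to 1884 outside lesions, while Camp and Cxcr2 lay at the floor on all 11 arrays. The part of neutrophils in the Lyz2 signal was not tested.

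The 10 genes also varied among themselves. Over the 11 arrays the 28 pairs of the 8 members higher in ATLO had Pearson r from 0.753 to 0.979, with a median of 0.893, which the shared group difference sets. With group means removed the same pairs had r from -0.143 to 0.914, median 0.587, over 11 arrays, with the genes of an array sharing its dissection and RNA. Trem2 lay at the floor on 7 of the 11 arrays, and the 21 pairs without it had a median of 0.65 within groups. Cd68 and Lyz2 stayed closest within groups at 0.914. Spp1 and Mpeg1, at 0.979 over all arrays, were at -0.143 within groups: ATLO replicate 1, highest for Spp1, was not the highest for Mpeg1. Cd36 had negative r with each of the 8 over all arrays, but its 9 pairs lay between 0.046 and 0.636 within groups. Fabp5 had r between -0.513 and 0.099 within groups.

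**Figure D4:**
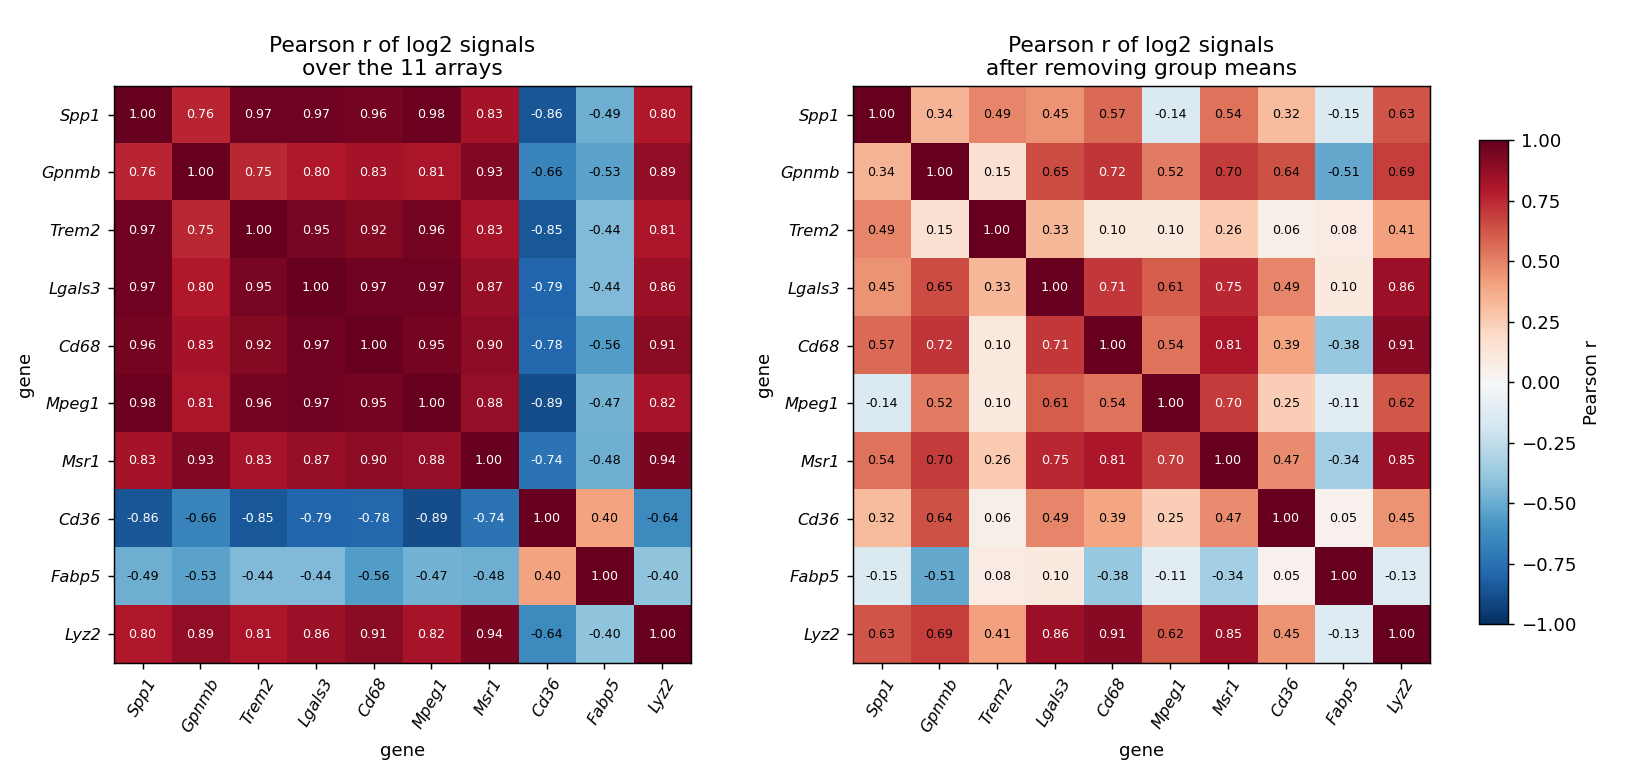
Pearson r of log2 signal between each pair of the 10 genes over the 11 arrays (left) and after subtracting each group's mean (right), with colour from blue (-1) to red (1). Cd36 has negative r with each of the 8 genes higher in ATLO on the left and positive r on the right, and the pair of Cd68 and Lyz2 has 0.914 on the right.

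Among 9041 other genes, those with the pattern most like Spp1 over the 11 arrays were Ikbke and Hsd3b3, both with r of 0.9905, then Pirb at 0.9864 and Ccr7 at 0.9859. Hsd3b3 and Pirb were also among the 4 most like Trem2, at 0.9724 and 0.9662, after Ctss at 0.9727 and before Sec61a1 at 0.9612. Ikbke and Ccr7 lay at the floor on all 7 arrays outside ATLO and Hsd3b3 on 5 of them, as Trem2 did on 7, so these r values rest on the ATLO arrays against the floor. The Hsd3b3 probe set is of a type that can detect related sequences. Gpnmb was most like Rrbp1 (0.9751), Ms4a4d (0.969), Mxra8 (0.9631) and Frmd5 (0.9574). Lyz2 was most like Alox5ap (0.9649), Kdelr2 (0.9577), C1qa (0.9532) and Il18bp (0.9506). Cd36 was most like Cyp4b1 (0.9823), Ypel5 (0.9787), Dhrs7b (0.9636) and Dgat1 (0.9595), the last an enzyme of triglyceride synthesis. These values come from 3 groups of arrays and mostly follow the difference between groups.

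Genes that work with the members were read from 9 lists of 142 genes in all, of which 102 were tested. Of these, 38 rose and 13 fell in ATLO against outside lesions, 34 rose and 11 fell against wild type, and 2 rose and 4 fell outside lesions against wild type. Their median log2 difference between ATLO and outside lesions was 0.34, beside 0.10 for all probe sets tested. Of all probe sets tested, 17.9% were called higher and 13.9% lower in ATLO against outside lesions. Against wild type the shares were 13.4% and 13.4%, and between outside lesions and wild type 1.72% and 1.54%. The counts of each list below stand beside these shares. The adjusted p-values below are from limma and cover all probe sets.

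Of the osteopontin receptors 3 of 7 tested rose and 0 fell against outside lesions, with a median log2 difference of 0.66. Against wild type 2 rose and 2 fell. Cd44, the hyaluronan and osteopontin receptor, read 2937 ± 725 (SD, n = 4) in ATLO, 694 ± 185 (n = 4) outside lesions and 991 ± 248 (n = 3) in wild type, a rise of 2.09 ± 0.24 (adjusted p = 3.88e-05) against outside lesions and of 1.56 (adjusted p = 9.45e-04) against wild type. The integrin subunit Itgav rose by 0.86 ± 0.14 (adjusted p = 3.86e-04) through its brightest probe set, and the mean of its probe sets gave 0.34 (adjusted p = 0.177). Itgb5 rose by 0.82 ± 0.25 (adjusted p = 0.0214), a call lost without ATLO replicate 1 or 3 or outside-lesion replicate 3 or 4 (adjusted p from 0.0525 to 0.0679). The receptors that fell against wild type were Itga8 by 1.37 (adjusted p = 0.0421) and Itga9 by 1.18 (adjusted p = 0.0234), named after their values were seen. The Itga9 call was lost without ATLO replicate 2 or wild-type replicate 1 or 2 (adjusted p from 0.0528 to 0.120). It was also lost without the filter on dim probe sets (adjusted p = 0.0605) and with the mean of its probe sets (-0.44, adjusted p = 0.259). The Itga8 call was lost under 11 of 20 alternative analyses. Among them were those without ATLO replicate 1, 2 or 4, outside-lesion replicate 1 or wild-type replicate 1 or 2 (adjusted p from 0.0502 to 0.175). Itgb3, the partner of Itgav in the classical osteopontin receptor, lay at the floor on all 11 arrays, so no difference can be given for it. Of a list of bone phosphoproteins and genes that process osteopontin, 4 of 10 were tested: Fam20c, Mmp3, Mmp9 and Tgm2. No bone phosphoprotein was among those tested, so the counts do not describe that family. Of the 4 tested, 1 rose and 0 fell against outside lesions, and 1 rose and 1 fell against wild type. The gene called lower against wild type was Mmp9, with a log2 difference of -0.98 (adjusted p = 0.0337). Against outside lesions Mmp9 differed by -0.39 (adjusted p = 0.338). Mmp3, a matrix protease, rose from 1337 ± 754 to 10767 ± 4296 in ATLO, by 3.12 ± 0.49 (adjusted p = 3.27e-04). Cd44, Itgav and Mmp3 are also expressed by fibroblasts, whose markers Lum, Col1a1, Col3a1 and Pdgfra rose on the same arrays, and the part of fibroblasts in these rises was not tested.

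Of the TREM family and Trem2 signalling genes 11 of 12 tested rose against outside lesions and 10 against wild type. Between outside lesions and wild type 0 were called by limma, where 2 had an unadjusted p under 0.05. Treml1, the only TREM receptor tested in this list, did not rise. It differed by -0.50 ± 0.25 (adjusted p = 0.1485) against outside lesions and by -0.30 (adjusted p = 0.439) against wild type. The genes that rose were thus signalling genes and partners. The median log2 difference was 1.535 between ATLO and outside lesions. Tyrobp, which encodes the adaptor DAP12, read 5419 ± 986 in ATLO, 1264 ± 317 outside lesions and 1818 ± 456 in wild type, a rise of 2.12 ± 0.22 (adjusted p = 2.45e-05). Tyrobp is itself among the general macrophage markers counted above. Syk, the kinase downstream of DAP12, rose by 2.13 ± 0.16 (adjusted p = 7.86e-06). Vav1, a signalling protein of blood cells, rose by 2.93 ± 0.30 (adjusted p = 2.20e-05), and Ms4a6d by 2.56 ± 0.35 (adjusted p = 1.24e-04). Several of these genes, Syk and Vav1 among them, are also expressed by lymphocytes, whose markers were higher in the same arrays. The B cell sums ran from 5470 to 16621 in ATLO and 778 to 1929 outside lesions, and the T cell sums from 2145 to 5036 and 397 to 533. The part of lymphocytes in the rises of this list was not tested.

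**Figure D5:**
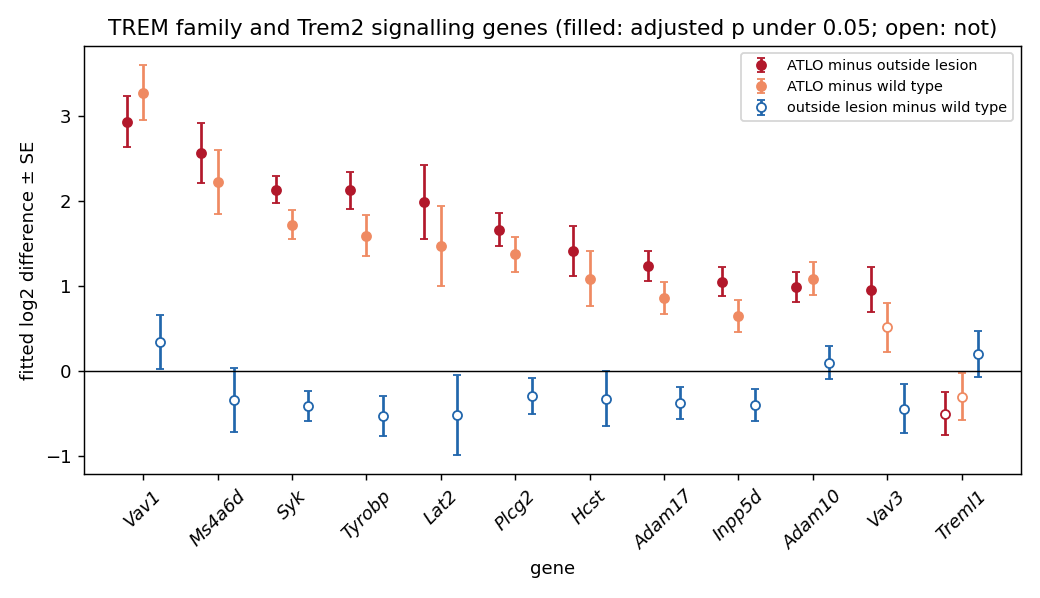
Fitted log2 difference in signal (vertical axis, points with SE) for the 12 tested genes of the TREM family and Trem2 signalling in each of the 3 contrasts, filled where the adjusted p is under 0.05. Vav1, Ms4a6d, Syk and Tyrobp are filled in both ATLO contrasts, Treml1 in none, and the outside-lesion minus wild-type points are open throughout.

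Of 32 tested genes of the wider lipid-associated programme, 12 rose and 5 fell against outside lesions, and 11 rose and 1 fell against wild type. Mmp12, macrophage elastase, read 1358 ± 947 in ATLO against 40.0 ± 31.6 outside lesions, a rise of 4.45 ± 0.50 (adjusted p = 3.59e-05), with 2 of 4 outside-lesion arrays and all wild-type arrays at the floor. Cd5l, a secreted macrophage protein of lipid metabolism, rose by 2.585 ± 0.36 (adjusted p = 1.43e-04). Itgax, the CD11c integrin of dendritic cells and some macrophages, rose by 2.45 ± 0.24 (adjusted p = 1.95e-05). The genes that fell included Plin2, which coats lipid droplets, by 1.24 ± 0.24 on the log2 scale (adjusted p = 0.00175). Plin2 read 3517 ± 1300.1 in ATLO, 8065 ± 1937 outside lesions and 8286 ± 1644 in wild type. Lpl, lipoprotein lipase, fell by 1.33 ± 0.25 (adjusted p = 0.00136). Both Plin2 and Lpl are also high in fat cells, and Lpl is itself among the 10 adipocyte markers counted above. Adipoq, adiponectin, another of these markers, fell by 1.43 ± 0.22 (adjusted p = 2.88e-04). The part of fat cells in the lower Plin2 and Lpl signal was not tested.

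The counts of the other families of the members follow. Of 5 tested proteins that bind fatty acids or acyl-CoA 3 fell and 0 rose, with a median of -1.135. Fabp3 of heart and brown fat fell by 4.16 ± 1.09 (adjusted p = 0.0105), from 4181 ± 3200 to 134 ± 88.8. The lowest outside-lesion array, at 102.3, lay inside the ATLO range of 45.1 to 236.1, and the call was lost without the filter on dim probe sets (adjusted p = 0.0588). Dbi, a carrier of acyl-CoA, fell by 1.46 ± 0.23 (adjusted p = 3.83e-04). Fabp4, the fat cell form, fell by 1.135 ± 0.36 (adjusted p = 0.0278), a call lost without ATLO replicate 2 or 4 or outside-lesion replicate 1 (adjusted p from 0.0532 to 0.0806). Of 7 tested galectins and their ligands 2 fell and 0 rose, while Lgals3 itself was higher. Lgals12, the galectin of fat cells, fell by 1.34 ± 0.21 (adjusted p = 2.92e-04). Lgals1 fell by 0.71 ± 0.245 (adjusted p = 0.0397), and that call was lost without ATLO replicate 2 or 4, outside-lesion replicate 1, 3 or 4, or any wild-type replicate (adjusted p from 0.0530 to 0.110).

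Of 14 tested scavenger receptors besides the members 4 rose and 1 fell. Cxcl16, the receptor of oxidised lipoprotein, rose by 1.80 ± 0.19 (adjusted p = 3.02e-05), and Scara3 by 1.19 ± 0.22 (adjusted p = 0.00123). Vldlr, the receptor of triglyceride-rich lipoprotein, fell by 1.84 ± 0.21 (adjusted p = 4.40e-05). Scarb1, the class B relative of Cd36, differed by -0.46 ± 0.17 (adjusted p = 0.0536), and was called lower with quantile normalization, equal array medians, the mean of its probe sets or without ATLO replicate 4 (adjusted p from 0.0136 to 0.0219). Of 14 tested lysosome-associated and pore-forming proteins 5 rose and 0 fell, among them Laptm5 by 1.895 ± 0.23 (adjusted p = 5.57e-05), Gusb by 1.265 ± 0.16 (adjusted p = 8.83e-05) and Man2b1 by 1.22 ± 0.16 (adjusted p = 1.15e-04). Laptm5 is itself among the general macrophage markers counted above and is also expressed by lymphocytes.

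Of 10 tested transcription factors of macrophages and lipid response, 3 rose and 3 fell. The macrophage factors Irf8 and Spi1, which encodes PU.1, rose by 2.685 ± 0.31 (adjusted p = 4.43e-05) and 1.47 ± 0.17 (adjusted p = 4.88e-05). Irf8 and Spi1 are also expressed by B cells, whose markers rose on the same arrays. Pparg, the fat cell and macrophage factor that activates Cd36, read 593 ± 217 in ATLO, 2512 ± 596 outside lesions and 1247 ± 362 in wild type. It fell by 2.14 ± 0.285 (adjusted p = 1.06e-04) against outside lesions and by 1.12 (adjusted p = 0.0165) against wild type. The call against wild type was lost without wild-type replicate 3 (log2 difference -0.90, adjusted p = 0.0827) and without the filter (adjusted p = 0.0597). Its group means stood in the same order as those of Cd36's brightest probe set and of the adipocyte marker Adipoq. Another Cd36 probe set read 9318 outside lesions and 9286 in wild type, a log2 difference of -0.004. Pparg is itself among the adipocyte markers. The part of Pparg and of fat cells in the lower Cd36 signal was not tested.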

How the data were processed

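The deposited values are signal intensities on a linear scale, 1 per probe set and array. The authors made them with the GCOS 1.4 software per the submitters' processing notes, which give no further step. The array medians ran from 151.5 to 191. Of 22690 probe sets, 64 controls were left out. Signals under 35.1 (the 20th percentile) were set to it, log2 was taken, and 14988 probe sets above their array's 40th percentile on at least 3 arrays were tested. limma 3.58.1 (R 4.3.3) fitted the 3 group means over 11 arrays with an intensity trend and Benjamini-Hochberg adjustment, called at 0.05. It was tested on simulated data. A gene was represented by its brightest probe set. Of the probe sets, 20380 had 1 symbol, 691 several and 1555 none.

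The members and all lists were chosen with earlier results of these data known. Named were all members, the 3 genes of each companion list with the largest called difference between ATLO and outside lesions, 12 set genes (Apoe, Cd44, Itgb3, Tyrobp, Lgals1, Fabp4, Scarb1, Lpl, Plin2, Pparg, Csf1r, Adipoq), and the 4 genes most like each of 5 members. Adgre1, C1qa, Mertk, Itgam, Cd53, Treml1, Fam20c, Mmp9, Tgm2 and the fibroblast genes were named after their values were seen. The number of arrays limits the precision.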

Additional observations from a re-analysis of the deposited data

How the results depend on the processing

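The alternatives were 20 in each contrast: array medians made equal, quantile normalization, other floors, no filter, only the groups compared, the mean of a gene's probe sets, no intensity trend, a replicate block, and leaving out each array. Of 600 log2 differences of members, 8 moved by more than the replicate spread. The sign was kept in all 200 between ATLO and outside lesions and all 200 between ATLO and wild type. Between outside lesions and wild type, where 0 members were called, it turned in 8 of 200, for Lgals3 (-0.04 to 0.34), Cd68 (-0.20 to 0.26) and Fabp5 (-0.53 to 0.18). Members called between ATLO and outside lesions ranged from 9 to 10, against wild type from 6 to 9. Equal array medians moved the median of all probe sets between ATLO and outside lesions from 0.10 to -0.02. The share of calls that were higher went from 56.3% to 44.1% with them (quantile 49.0%), against wild type from 49.9% to 56.0%, and between outside lesions and wild type from 52.8% to 87.3% (quantile 67.9%). Between outside lesions and wild type, 489 probe sets were called. There were 301 without the filter, 202 with only these groups, 248 without the intensity trend, and from 21 (without wild-type replicate 2) to 886 (without outside-lesion replicate 2) leaving out an array. The 6 listed genes called there became 2 without the filter and 0 to 11 leaving out an array. With the replicate block 189 were called there, but the numbers do not pair the samples (correlations of same-numbered deviations from -0.178 to 0.273), and the block gave 4744 and 3819 calls in the ATLO contrasts against 4777 and 4012. The cause of these shifts was not tested. Lyz2 was called against wild type under 6 alternatives and Gpnmb under 2. Signals near background, as for Trem2, limit the size that can be given.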

Other observations

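Several companion genes outside the naming rule are given here, chosen after their values were seen. Of the 32 tested genes of the wider lipid-associated programme, 12 rose, 5 fell and 15 were not called against outside lesions. Of its cathepsin genes Ctsl rose by 1.14 ± 0.18 (adjusted p = 3.93e-04), while Ctsb, Ctsd and Ctsz were not called, at -0.18, -0.29 and 0.39. Lgmn, a lysosomal protease, rose in ATLO against outside lesions by 2.06 ± 0.20 (SE, adjusted p = 1.86e-05), from 744 ± 189.5 to 3086 ± 720.5 (SD, n = 4 each), and Clec7a, the beta-glucan receptor dectin-1, by 2.02 ± 0.27 (adjusted p = 1.09e-04). Abcg1, a cholesterol exporter, rose by 0.80 ± 0.18 (adjusted p = 0.00362) and against wild type by 1.45 ± 0.19 (adjusted p = 2.66e-04). Acp5, the tartrate-resistant phosphatase, fell by 0.71 ± 0.16 (adjusted p = 0.00471). The lysosomal membrane protein Lamp1 differed by -0.18 ± 0.21 (adjusted p = 0.552). Marco, a scavenger receptor of the same class as Msr1, read 203 ± 71.0 in wild type and was near the floor in both Apoe-deficient groups, where the genotype and the RNA preparation cannot be told apart.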
